A study of Drosophila melanogaster with 3 samples.

Results

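Intergenic peaks of the Drosophila Dbx-eGFP fusion protein that lay outside promoters are described here. They were taken from the conservative peak list, which was thresholded by the irreproducible discovery rate (IDR), a measure of how well peaks rank alike between data sets. A peak was kept when its summit fell outside every protein-coding gene on 2L, 2R, 3L, 3R, 4 and X and more than 250 bp from any protein-coding transcription start site (TSS). This left 688 of 4943 peaks, or 13.9%. The other peaks had their summits at promoters (2543), in introns (1509) or in exons (203) away from promoters. The study was a chromatin immunoprecipitation with sequencing (ChIP-seq) of whole embryos aged 8 to 24 h from transgenic flies of the strain Dbx-GFP, precipitated with an antibody against GFP. It holds 3 biological replicates of 1 group, each with its own thresholded peak list, and every library carries the fusion transgene. Whole organisms were used, so the cells in which a site was occupied cannot be told from these lists, and the level of the fusion protein relative to native Dbx is not given in the sources used here. The labels give no detail on what separates the biological replicates, so spreads between them may be partly technical.

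Dbx, a DNA-binding protein of the homeodomain family, acts in the development of interneurons of the embryonic nerve cord. Homeodomains bind short words rich in adenine and thymine, most often around a TAAT core. Sequence between genes holds enhancers, upstream parts of promoters, genes for noncoding RNAs and insulator elements. In flies, insulator elements are bound by zinc-finger proteins such as CTCF and su(Hw). A control experiment was not analysed here, so no background level is set beside the signals.

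The 4 peaks of highest signal with a peak in all 3 replicate lists, among those whose sequence may be printed, are shown first, because they are the best supported sites of the set. Sequences run from 100 bases before the summit to 100 bases after it in the RefSeq sequence of dm6, plus strand, 5′ to 3′. Capitals mark the following words, searched on both strands: AGGTGGCG of CTCF, TTGCATA of su(Hw), AGTGTA of no assigned factor, TATCGATA of DREF, GTCACACT of motif 1, GAGAG of GAGA factor and TAATTA of homeodomains. The first 2 lie in 1 stretch between CG4004 and Paics on X.
CG4004 first peak, chrX:12751300-12751500: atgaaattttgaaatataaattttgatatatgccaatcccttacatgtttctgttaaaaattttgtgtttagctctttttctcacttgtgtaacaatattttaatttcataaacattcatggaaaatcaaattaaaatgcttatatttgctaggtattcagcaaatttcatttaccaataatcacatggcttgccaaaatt
CG4004 second peak, chrX:12752267-12752467: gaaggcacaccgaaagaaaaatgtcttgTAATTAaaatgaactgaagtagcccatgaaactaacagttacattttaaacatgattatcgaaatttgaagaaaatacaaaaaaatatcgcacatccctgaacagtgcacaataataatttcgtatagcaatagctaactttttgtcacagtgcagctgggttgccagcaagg
cu peak, chr3R:11197214-11197414: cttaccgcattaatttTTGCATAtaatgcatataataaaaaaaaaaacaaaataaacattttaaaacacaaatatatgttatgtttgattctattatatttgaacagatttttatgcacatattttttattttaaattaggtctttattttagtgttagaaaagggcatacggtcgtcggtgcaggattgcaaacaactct
tara peak, chr3R:16222390-16222590: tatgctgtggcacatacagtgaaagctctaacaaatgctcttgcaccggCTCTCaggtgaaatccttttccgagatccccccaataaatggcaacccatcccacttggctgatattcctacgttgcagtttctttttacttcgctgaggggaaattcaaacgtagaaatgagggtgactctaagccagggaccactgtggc

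The GC content of these windows was 24.9%, 34.8%, 24.9% and 47.8% in the order shown. The first window held none of the words listed above. The homeodomain word TAATTA occurred in 1 of the 4, at the second CG4004 peak. Its variant TTATTA, which is not marked, occurred at the second CG4004 peak and at cu. The word CTCTC at tara is GAGAG read on the other strand.

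Shorter stretches are shown for 3 words that the results below turn on, each with 20 bases to either side and the word in capitals, read on the strand that spells it. AGGTGGCG is the core of the site known for CTCF, and TTGCATA is the core of the site known for su(Hw). AGTGTA was found in the scan of all words of 6 bases and is given no factor. For each word the 2 members of highest signal that held it, among those whose sequence may be printed, were taken.
jp, AGGTGGCG, chr2L:9567465-9567512, minus strand: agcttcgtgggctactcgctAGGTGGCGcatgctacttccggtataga
CG10651, AGGTGGCG, chr2L:20121094-20121141, plus strand: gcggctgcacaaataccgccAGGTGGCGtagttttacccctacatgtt
cu, TTGCATA, chr3R:11197210-11197256, plus strand: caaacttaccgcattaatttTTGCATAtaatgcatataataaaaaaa
chinmo, TTGCATA, chr2L:1632780-1632826, plus strand: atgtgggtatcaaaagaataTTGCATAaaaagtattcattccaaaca
CG17896, AGTGTA, chrX:494025-494070, plus strand: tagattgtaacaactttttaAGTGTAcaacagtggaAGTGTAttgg
Dpp10, AGTGTA, chr2L:6601445-6601490, plus strand: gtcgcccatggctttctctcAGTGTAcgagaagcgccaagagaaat

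The strongest intergenic site of the conservative list lay 5083 bp downstream of the CG4004 start on X, inside the long noncoding RNA gene Vinr. Its signal, the authors' enrichment value for a peak and comparable only within a list, was 1652, which ranked 17 of 4943. It ranked 21, 20 and 12 in the lists of replicates 1, 2 and 3. The next of the set lay 256 bp upstream of Sox14, a Sox-family transcription factor gene, at rank 30, with replicate ranks of 32, 37 and 25. The third, also between CG4004 and Paics, ranked 40, and 46, 47 and 30 in the replicates. A site 278 bp upstream of cu, which encodes the Nocturnin homologue curled, ranked 46, and 50, 42 and 48 in the replicates. These 4 held near-equal places in every list.

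Other sites of high signal were spread over genes of many functions. A site 3161 bp upstream of tara, which encodes a partner of trithorax-group proteins, ranked 49 overall and 40, 50 and 84 in the replicates. A site 3349 bp upstream of foxo, the forkhead factor of insulin signalling, ranked 54, and 61, 48 and 59 in the replicates. The site nearest eEF1gamma, a translation elongation factor gene, lay 5722 bp upstream and ranked 64. A site 4209 bp upstream of Psc, a Polycomb complex subunit gene, ranked 105, and 113, 82 and 167 in the replicates. The widest spread among the 20, as the ratio of the lowest to the best rank, was at DNAlig3, with ranks of 26, 51 and 115, and hll, with 72, 69 and 190. All 20 overlapped a peak in each replicate list, at a median rank of 66.5, 67 and 81.5 and a lowest rank of 150, 223 and 190.

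**Figure D1:**
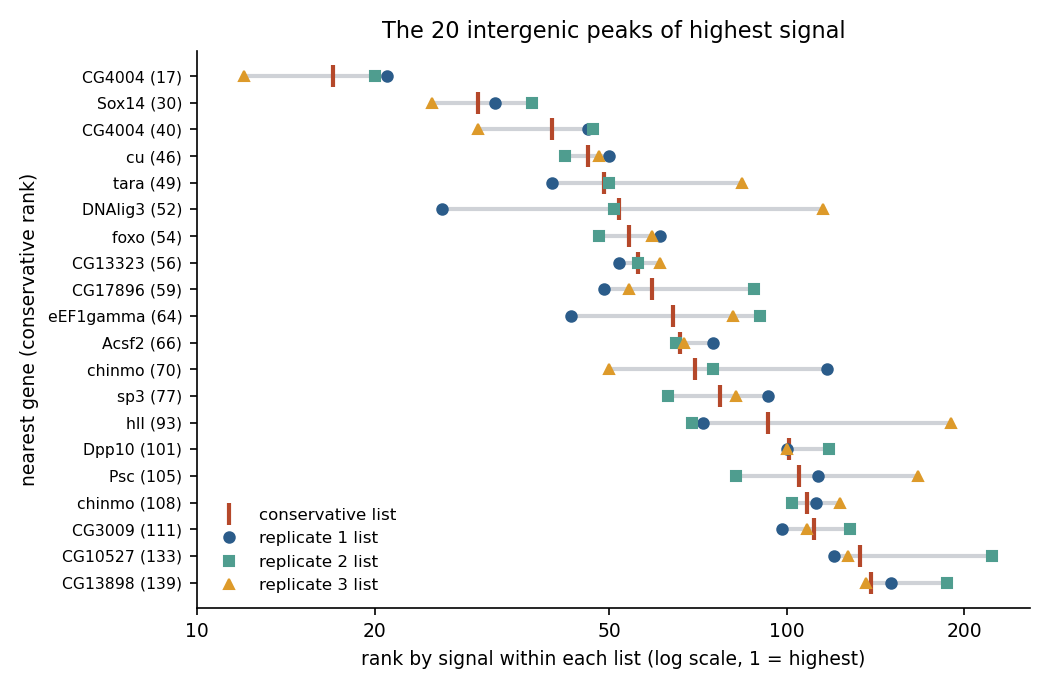
Rank by signal of the 20 intergenic peaks of highest signal, on a log scale, in the conservative list (red bar) and in the lists of replicates 1 to 3 (circle, square, triangle), with the nearest gene and conservative rank at the left. All 20 stand in every replicate list, at ranks of 12 to 223.

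Over the whole set, sites found in every replicate were mostly those of high signal. The conservative list derives from the alignments of the same replicates, so signal and presence in the replicate lists are not independent. A peak in all 3 replicate lists (an overlap of 1 bp or more) was found for 244 of the 688 intergenic peaks, or 35.5% (95% exact binomial interval, counting error only, 31.9 to 39.2%), against 36.2% of all conservative peaks. A further 134 had a peak in 2 lists and 160 in 1 list. No list held a peak for 150, or 21.8% (18.8 to 25.1%), against 20.5% of all conservative peaks. Both shares of the intergenic set were therefore close to the share over all classes. Singly, the lists of replicates 1, 2 and 3 overlapped 416, 412 and 332 of the intergenic peaks. In the ranked lists with no threshold, 647 (94.0%) had a peak in every replicate, where lists of 78411 to 99500 peaks make an overlap undemanding.

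When the 688 were cut by signal into 4 groups of 172, the highest group, with signals of 205.7 to 1652, had 157 in all 3 lists (91.3%) and 0 missing from every list. In the next group 65 (37.8%) were in all 3, and in the one after it 5 (2.91%). The lowest group had 17 (9.88%) in all 3 and 110 (64.0%) in none. The higher count in the lowest group went with closely spaced peaks. Of the 688, 58 shared bases with a conservative peak of higher signal, 51 of them in the lowest group, and such a pair can overlap the same replicate peak. At scyl, for example, the summits at 11256265 and 11256466 on 3L, with signals of 328.3 and 58.9, overlapped the same peaks, ranked 732, 506 and 908. Among the 121 peaks of the lowest group with no stronger peak on their bases, 1 was in all 3 lists. Without the 58 peaks the share in all 3 lists was 35.4% of 630.

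**Figure D2:**
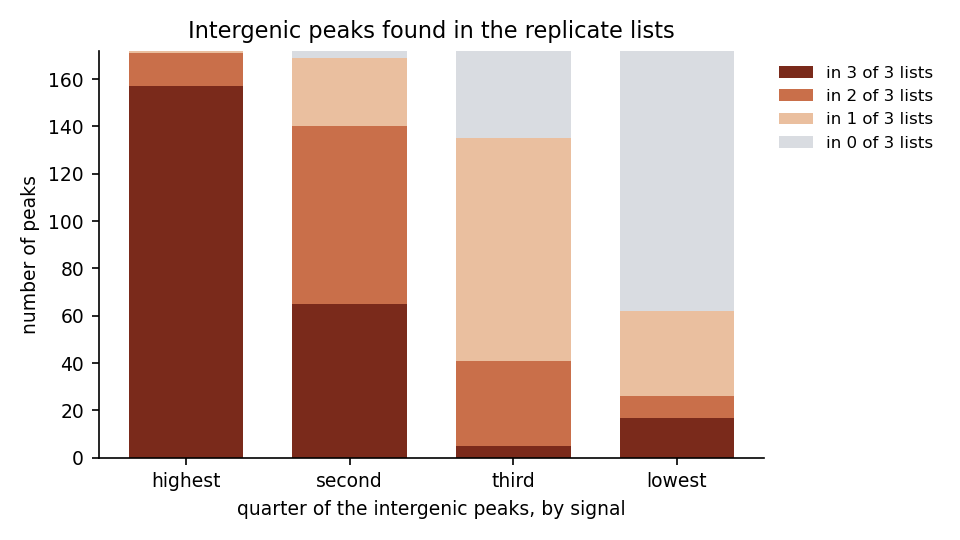
Number of intergenic peaks (172 per bar) in 4 groups of falling signal, divided by how many of the 3 replicate lists held an overlapping peak. The share in all 3 lists was 91.3% in the highest group and 2.91% in the next to lowest.

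Intergenic peaks were set against promoter and intronic peaks within each replicate list. They made up 12.8%, 14.0% and 15.1% of the lists of replicates 1, 2 and 3 (474 of 3701, 471 of 3353 and 379 of 2515 peaks), a mean of 14.0% ± 1.13 (SD, n = 3). Of the intergenic peaks of each list, 50.6%, 50.1% and 63.3% overlapped a peak in both other lists. For promoter peaks the shares were 50.4%, 55.2% and 76.2%, and for intronic peaks 48.4%, 53.7% and 65.1%. Replicate 3, with the shortest list, had the highest share in each class. The mean difference, intergenic minus promoter, was -5.93 ± 6.61 percentage points (SD, n = 3; two-sided exact sign-flip permutation test, p = 0.5), and it ran from -9.005 without replicate 1 to -2.44 without replicate 3. Intergenic minus intronic was -1.06 ± 2.99 points (exact p = 0.75). Neither difference exceeded the spread between replicates. Over the 7 comparisons of this kind adjusted exact p-values were 0.583 or 0.75, and 3 replicates cannot give a p below 0.25.

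Signal did not set the classes apart beyond that spread either. The median intergenic peak stood at the percentile 53.5, 47.7 and 48.9 of signal within the 3 lists, against 52.3, 52.4 and 55.2 for promoter peaks and 47.4, 48.8 and 43.8 for intronic peaks. The difference was -3.26 ± 3.94 from promoter peaks (exact p = 0.5) and 3.35 ± 3.93 from intronic peaks (exact p = 0.5), each with SD over 3 replicates. Among the 500 conservative peaks of highest signal 58 were intergenic, which is 8.43% of the intergenic set, against 303 promoter peaks, 11.9% of theirs, and 127 intronic peaks, 8.42% of theirs. Exonic peaks away from promoters, at 16.3% in all 3 lists, recurred least in the conservative list.

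Base composition at the summits differed from the ground beside them in the same direction in every replicate. Over 100 bp to either side of intergenic summits GC content averaged 39.0%, 37.9% and 36.7% in the 3 lists. Windows of the same width 1000 bp to either side averaged 41.1%, 41.4% and 41.4%. The difference was -3.43 ± 1.30 points (SD, n = 3; lower in 3 of 3; exact p = 0.25, the smallest possible). Promoter summit windows averaged 40.9%, 39.7% and 36.9%, and the difference, intergenic minus promoter, was -1.92, -1.77 and -0.228 points (exact p = 0.25). The difference from intronic windows was 0.458 ± 0.471 points (exact p = 0.5). Of the flanking windows, 31.2% were centred in a protein-coding gene. Tiles of the same width over all intergenic sequence averaged 40.8%. The lower GC at summits was not particular to intergenic peaks, since promoter and intronic windows were also below their own flanks in every replicate. Promoter flanks averaged 44.7%, 45.4% and 45.8%. Intronic windows averaged 39.0%, 37.5% and 35.7%, against 41.1%, 41.1% and 40.8% in their flanks.

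The intergenic peaks lay close to genes. Intergenic sequence by the same rule came to 41594982 bases. Repeated sequence and assembly gaps were not left out of these bases, and ratios of peaks to bases were not corrected for them. The 251 to 1000 bp nearest a TSS held 8.94% of these bases and 220 peaks, 32.0% of the set, a ratio of 3.58. In the replicate lists the share was 31.6%, 35.0% and 36.4%. From 1001 to 2000 bp the peaks had 15.1% against 8.99% of bases, and from 2001 to 5000 bp 21.8% against 19.6%. From 5001 to 20000 bp they had 27.6% against 35.9%. Beyond 20000 bp lay 24 peaks, 3.49%, against 26.5% of the bases, and the replicate lists had 3.16%, 4.03% and 3.69% there. The ratio of peaks to bases thus fell with each step of distance in the conservative list. Every replicate was above the bases in the nearest class and below them in the 2 farthest.

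The median distance was 2260 bp, with a range of 252 to 59531 bp. Recurrence was 42.3% in all 3 lists in the nearest class and 36.5%, 32.7%, 29.5% and 33.3% in the others in order of distance, the last of them over 24 peaks. The nearest class also had the highest median signal, 146.0, and the class from 5001 to 20000 bp the lowest, 123.4.

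**Figure D3:**
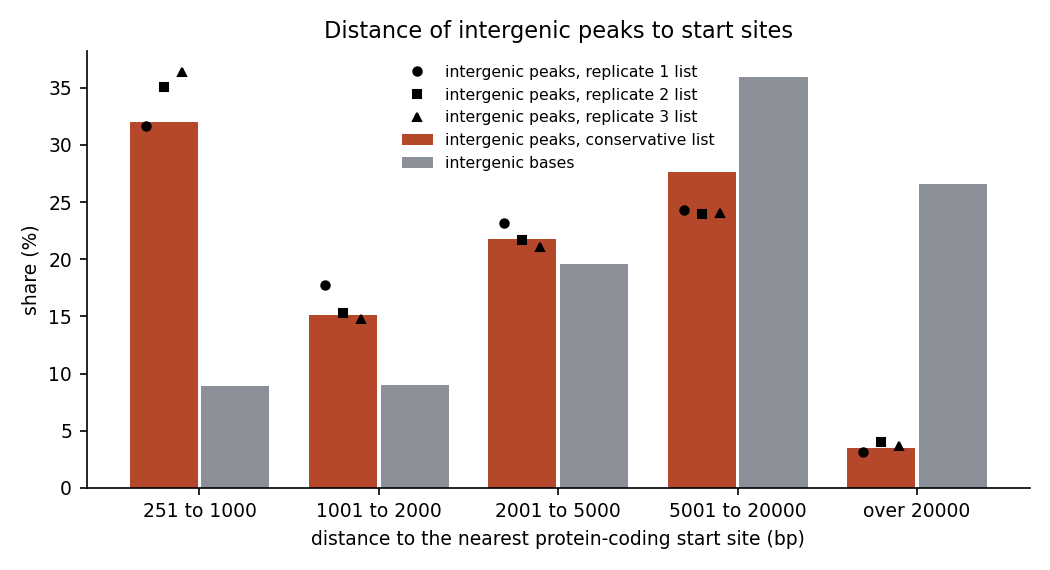
Share of intergenic peaks in the conservative list (red bars) and in each replicate list (points), beside the share of intergenic bases (grey bars), by distance to the nearest protein-coding start site. Peaks hold 32.0% against 8.94% of bases at 251 to 1000 bp, and 3.49% against 26.5% beyond 20000 bp.

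Upstream of the nearest TSS lay 481 of the peaks (69.9%), against 60.5% of intergenic bases, and 69.2%, 69.0% and 71.5% in the replicates. The upstream share was 97.7% at 251 to 1000 bp and 75% at 1001 to 2000 bp. In the 3 farther classes it was 55.3%, 49.5% and 45.8%. The bases were not split by side within each class, so side and nearness are not told apart. Between divergent genes, whose starts face each other, lay 34.9% against 24.3% of bases (34.2%, 35.9% and 35.6% in the replicates). Between convergent genes lay 19.0% against 21.1% of bases, and between tandem genes 46.1% against 50.04%. The chromosomes took shares near their shares of bases, for instance 14.4% against 15.7% on X and 24.6% against 24.1% on 3L. Chromosome 4 had 3 peaks.

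Annotated noncoding genes held more of the summits than their length and transposable elements fewer. A noncoding gene contained the summit of 91 peaks, 13.2% against 7.13% of bases, with 14.6%, 13.4% and 13.2% in the replicates. Of these, 82 were in the class that holds long noncoding RNAs and antisense RNAs, and 26 of the 82 were in all 3 replicate lists. The start of a noncoding gene lay within 250 bp of 62 summits, 9.01% against 2.25% of bases. That share was uneven, at 12.4%, 9.34% and 5.28% in replicates 1, 2 and 3. Transposable elements held 5 summits, 0.727% against 10.2% of bases. Whether reads can be placed in such multi-copy sequence was not examined.

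Among members in long noncoding RNA genes, the site in CR31840 near hll ranked 93, another site between CG4004 and Paics, in CR44619, ranked 192, and the site in CR46243, 9296 bp from the start of the growth regulator Myc, ranked 393. The Myc site ranked 419, 298 and 542 in the replicates. Small RNA genes gave fewer and weaker sites. Those for spliceosomal RNAs led, with a summit 51 bp from the start of snRNA:U1:95Ca at rank 548 (321, 678 and 1382 in the replicates) and 128 bp from snRNA:U2:34ABb at rank 899 (564, 1062 and 1287). Of the 8 summits near tRNA gene starts 1 was in all 3 lists, at tRNA:Leu-TAA-2-1, rank 1643, and 7 ranked 3076 or lower. These genes have near-identical copies, so which copy a peak belongs to is uncertain.

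Many peaks stood in stretches with others. Of 10424 stretches between neighbouring protein-coding genes 494 (4.74%) held a member, 393 of them only 1, while 34 stretches held 3 or more each and together 161 peaks (23.4%). Of the 509 stretches of 20000 bp or longer, 108 (21.2%) held a member. Within 1000 bp of another member lay 141 peaks, and 82 members shared bases with another member. Long stretches have more room, and no test of bunching was made.

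The stretch of 37097 bp between RFeSP, which encodes the Rieske protein of the respiratory chain, and chinmo, a BTB zinc-finger gene of neuronal temporal identity, held 11 peaks. Of the 11, 9 were in all 3 replicate lists. The strongest lay 12456 bp upstream of chinmo with a signal of 897.1, rank 70, and replicate ranks of 117, 75 and 50. Sites 18412 and 7768 bp upstream of chinmo ranked 108 and 167, and the second of these ranked 156, 180 and 185 in the replicates. At 16976 bp a site ranked 443. The site nearest chinmo, at 1538 bp, ranked 942. The 5 sites nearer RFeSP ranked 642 to 2323. The 2 that no replicate list held, at 15551 bp from RFeSP and 13155 bp from chinmo, had signals of 141.8 and 70.5.

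The 7250 bp between CG4004 and Paics, a purine synthesis gene, held 5 peaks, all in every replicate list, with signals of 1652, 1192, 576.3, 225.7 and 247.9 from left to right. Of the stretch before tara, the 7 members had signals of 1083 and 385.8 at the 2 in all 3 lists, and 47.4 to 108.0 at the other 5. A peak 1127 bp from tara in this stretch, with a signal of 704, was past the IDR threshold in the ranked list but missing from the conservative thresholded list, so it was not counted. Between scyl, which encodes a negative regulator of TOR signalling, and Dyro, 2 of 9 were in all 3 lists, both from the pair that shares bases. The 9 peaks after hry, the hairy gene of embryonic segmentation, had signals of 18.5 to 159.8, and none was in all 3 lists. Some of the 9 shared bases, such as those with summits at 8684039 and 8684240 on 3L, neither of which was in any replicate list. Stretches with similar counts thus differed in how often their peaks recurred.

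**Figure D4:**
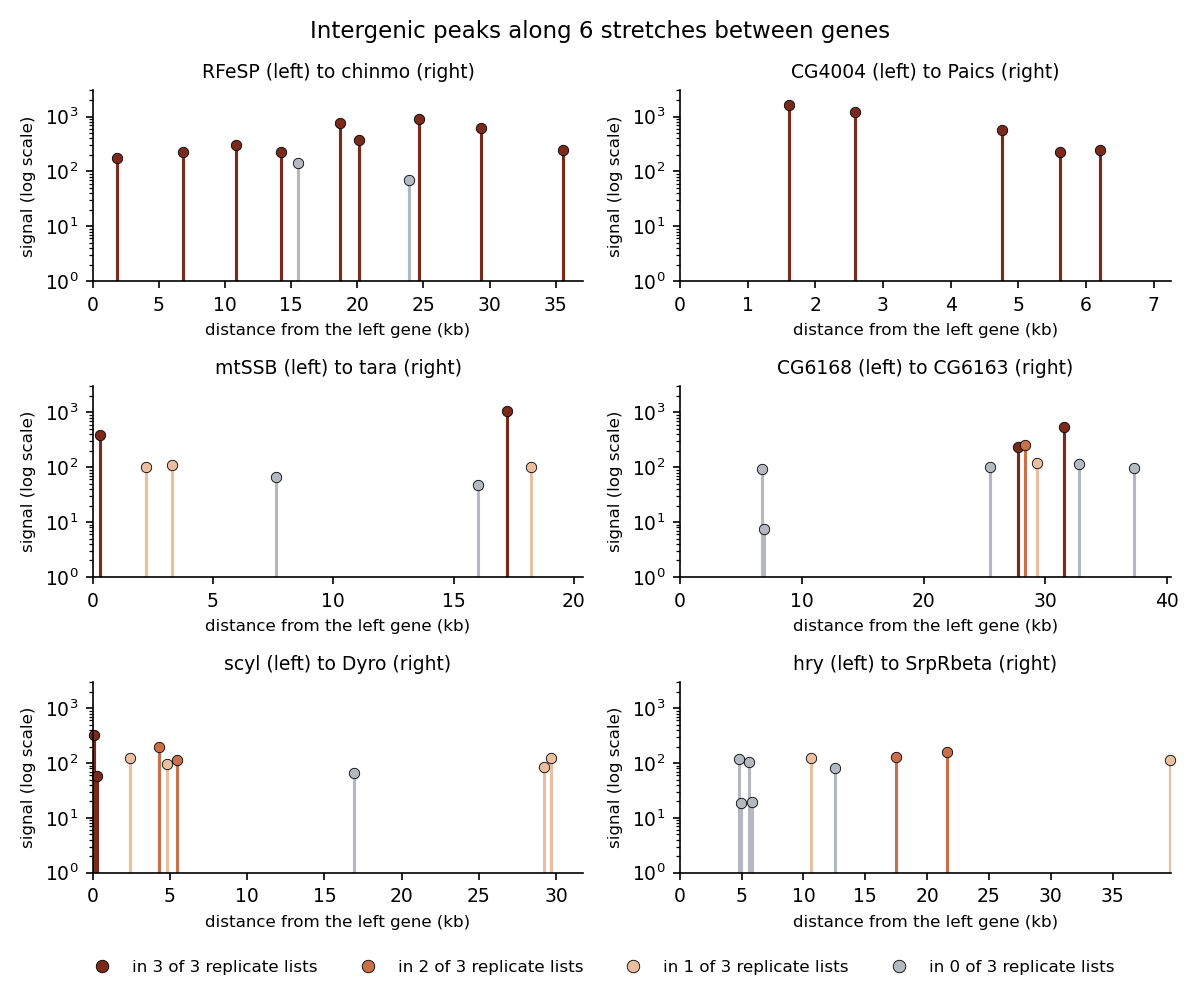
Signal (log scale) of each intergenic peak against distance from the gene at the left, for 6 stretches between neighbouring genes, coloured by the number of replicate lists with an overlapping peak. The stretches before chinmo (9 of 11) and after CG4004 (5 of 5) are mostly in all 3 lists, and the stretch after hry (0 of 9) is not.

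Among further stretches with 5 or more members, that between CG6168 and CG6163 held 9 peaks, with 2 in all 3 lists and a best rank of 218. Between RYBP and Ppa 5 of 7 were in all 3 lists, 2 of them a pair on shared bases. Between CG44362 and CG7560 4 of 6 were, and between CG16721 and Act5C, an actin gene, 3 of 5.

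Far from any start, sites were few and of middling signal. The farthest member stood 59531 bp from the start of Cyp12e1, in the stretch that ends at the homeobox gene hth, at rank 2700, with a peak in replicate 2 only (rank 2739). Sites 50176 bp from CG12362, 37709 bp from bab2, a BTB factor of limb patterning, and 33870 bp from vvl, a POU-domain factor, ranked 1086, 1383 and 2312, with a peak in 2, 2 and 1 replicate lists. Of the 10 farthest members 2 were in all 3 lists. The best ranked of the 10, 32102 bp from CG43245 at rank 372, ranked 322 and 343 in replicates 2 and 3 and missed the threshold in replicate 1, where its unthresholded rank was 525.

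At the limit of the rule, the members nearest the line were at CG31871 (252 bp), OtopLa (253 bp), BI-1 and ec (254 bp each) and CG16700 (256 bp), with signals of 91.1 to 202.3. The nearest summits left out were at Piezo and CG2865 (250 bp each) and Hk, fkh and igl (249 bp each), with signals of 72.3 to 379.3.

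The nearest start belonged to 511 of 13945 protein-coding genes (3.66%), and 327 of the 511 had no conservative peak of another class. Gene lists are set beside the share of intergenic bases nearest to their genes, since genes with much intergenic sequence around them have more room for a peak. Homeobox genes, the family of Dbx itself, had a member at 7 of 80 genes and 8 members in all, 1.16% of the set against 2.51% of bases (1.27%, 1.27% and 1.32% in the replicates). The best were 496 bp from PHDP (rank 1311), 427 bp from NK7.1 (rank 1519), 13062 bp from ems (rank 1954) and 6290 bp from zfh1 (rank 2111), and those of PHDP and zfh1 were in all 3 lists. Their share of members was thus below their share of bases in each replicate, but counted per gene 8.75% of homeobox genes had a member, against 3.66% of all protein-coding genes. Distance was not held equal between these bases and the rest.

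Neuroblast and neuron identity factors had 9 members at 4 of 39 genes, 1.31% against 1.15% of bases, 6 of the 9 at chinmo. Axon guidance and adhesion genes had 5 members at 4 of 38 genes, 0.727% against 0.662% of bases. The netrin receptor gene unc-5 led these at rank 449 (368, 504 and 436 in the replicates), and tutl at rank 1108 was also in all 3 lists. None of 33 synapse and excitability genes was nearest to a member, with 0.204% of bases.

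Segment and signalling genes had 19 members at 9 of 46 genes, 2.76% against 1.09% of bases, but 2 of the 19 were in all 3 lists and 8 in none, and the replicate shares were 1.69%, 1.70% and 1.32%. The 2 were at aop, an ETS repressor gene (rank 1002), and slp2, a forkhead gene (rank 1271). Of the 19, 8 were nearest to hry, some of them on shared bases. Mesoderm and muscle genes had 10 members at 7 of 41 genes, 1.45% against 0.488% of bases (1.05%, 0.849% and 1.58% in the replicates). Of the 10 members 4 were in all 3 lists and 2 in none. The 4 included those at sls, the fly titin gene (rank 649), bin, a forkhead gene of visceral mesoderm (rank 1452), and zfh1 (rank 2111).

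Lists of other kinds had few members. Ribosomal protein genes had 4 at 4 of 88 genes, cuticle and chitin genes 4 at 4 of 92, and odorant and gustatory receptor genes 4 at 3 of 119. Their shares were 0.581% each, against 0.876%, 0.452% and 1.25% of bases. Of 17 genes for insulator and promoter-binding factors, lola alone had members, at ranks 1701 and 2067. These 2 were 0.291% of the set against 0.0369% of bases, a ratio of 7.88 that rests on 1 gene and was the highest of the 10 lists.

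The word content of the summit windows was compared with the flanking windows and with all 202565 intergenic tiles of the same width, counting each word on both strands. TAATTA, the homeodomain core, was in 83 member windows, 12.1% (95% exact interval 9.72 to 14.7%), against 12.8% of flanks, 14.3% of tiles and 13.1% of all conservative peaks. In the replicate lists it was in 14.3%, 14.6% and 14.5% of intergenic windows, against 12.9%, 12.3% and 13.6% of their flanks. The conservative list thus stood a little below its flanks and the replicate lists a little above. The share differed with signal. Among the 278 members of the 2000 conservative peaks of highest signal it was 14.7%, or 1.22 times their flanks. Among the 58 members of the 500 it was 20.7%, or 1.71 times, against 0.94 times for the whole set. Its density along the peak had no maximum at the summit: 0.698 occurrences per kb in the central 50 bp, and 0.552 to 1.10 in the other bins. TTATTA, a variant core, was in 28.8% against 22.2% of flanks and 24.2% of tiles. At the 58 members, TTATTA was 1.60 times and the A tract AAAAAAAA 2.89 times as frequent as in flanks. For the whole set both were at 1.30 times. The TATA box TATAAA was at 1.21 times, against 1.25 for the whole set. The word GAGAG was at 1.71 times, against 1.39 for the whole set. The word TTGCATA was at 2.80 times, against 1.75 for the whole set. The word AGGTGGCG was in 12.1% of the 58 windows, against 4.65% for the whole set. Some other words fell, such as CACACACA from 4.07% to 0%. The rise was thus not particular to TAATTA or to words of adenine and thymine only. These shares rest on 58 windows and have no interval. Mean GC of the 58 was 35.5%, against 38.7% for the whole set.

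Words of 8 bases in at least 15 member windows were ordered by their ratio of counts to flanks, with 1 added to numerator and denominator. Among the first 10, the CTCF-type word AGGTGGCG was in the most windows and had the highest ratio to tiles, 13.5. CAGTGTAG and its neighbour shifted by 1 base, CCAGTGTA, had higher plain ratios to flanks (12 each, against 9.14), as did AGCAGTGC (10). AGGTGGCG was in 32 intergenic windows, 4.65% (3.20 to 6.50%), against 0.509% of flanks, 0.346% of tiles and 1.62% of all conservative peaks. In the replicate lists it was in 4.64%, 6.58% and 5.80% of intergenic windows. Their flanks had 0.527%, 0.318% and 0.264%, promoter peaks 0.806%, 0.827% and 0.872%, and intronic peaks 0.997%, 1.45% and 0.986%. Intergenic windows were above each of the other 3 sets in every replicate. Exonic peaks away from promoters were not among these sets. The word was added after it had been seen among the words of 8 bases most frequent relative to flanks in these members, so no test is given for it.

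Its occurrences were densest near the summits, which follows in part from how the word was chosen. It was picked for its excess over flanks in windows reaching 100 bp to either side of these summits. The 50 bp bins centred at -50, 0 and 50 bp had 12, 11 and 8 occurrences (0.349, 0.320 and 0.233 per kb), and no bin beyond 100 bp had more than 4. Of the 32 members 16, or 50%, were in all 3 replicate lists, against 35.5% of all intergenic members. Within 1000 bp of a TSS lay 12 of the 32, a share near the 32.0% of all intergenic members. The site 755 bp from jp, a junctophilin gene, ranked 172 (91, 169 and 378 in the replicates). Sites 13846 bp from CG10651 and 717 bp from nej, which encodes the CBP acetyltransferase, ranked 246 and 334. Sites 319 bp from mtSSB, a mitochondrial DNA-binding protein gene, and 319 bp from dco, the casein kinase of the circadian clock, ranked 436 and 731. The windows of jp and CG10651 are those printed above. The other words of 8 bases found this way included GCGCCACC (4.36% against 0.509% of flanks) and GCCACCTA (3.20% against 0.363%), which overlap the reverse complement of AGGTGGCG, and CAGTGTAG (2.62% against 0.218%), which contains AGTGTA.

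**Figure D5:**
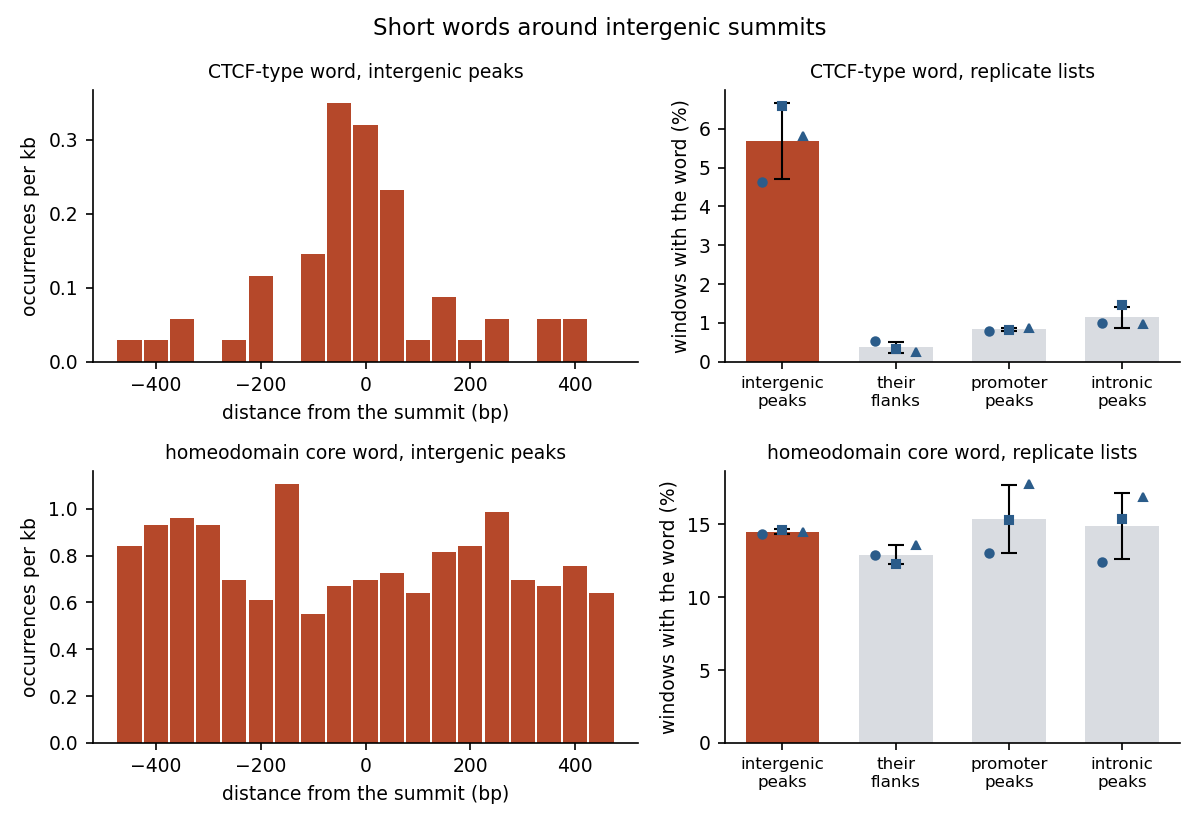
Left, occurrences per kb of the CTCF-type word (top) and the homeodomain core word (bottom) in 50 bp bins around intergenic summits of the conservative list. Right, the share of summit windows with the word at intergenic peaks, their flanks, promoter peaks and intronic peaks in the 3 replicate lists (circle, square and triangle for replicates 1, 2 and 3; bars and error bars, mean and SD, n = 3). The CTCF-type word was in 4.64 to 6.58% of intergenic windows and at most 1.45% of flank, promoter or intronic windows.

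AGTGTA was in 114 intergenic windows, 16.6% (13.9 to 19.6%), against 6.90% of flanks, 7.59% of tiles and 13.2% of all conservative peaks. The replicates had 15.4%, 20.2% and 19.0% of intergenic windows, 11.2%, 11.1% and 11.7% of promoter windows and 16.6%, 15.7% and 18.0% of intronic windows. It was above flanks and promoter windows in every replicate and on either side of intronic windows. Among the 2080 words of 6 bases, 1444 were in at least 5% of member windows, and 11 of these were at least 2 times as frequent as in flanks while none was at or below 0.5 times. The leading words were GGGGTA (2.56 times), CGCTAG (2.50 times) and AGTGTA (2.40 times). Against all intergenic tiles their ratios were 1.40 for GGGGTA, 2.42 for CGCTAG and 2.18 for AGTGTA, so the place of the first depended on the background. A further 7 of the 11 had ratios to flanks of 2.03 to 2.27. Of these, GCGCTA was in 7.27% of members against 3.42% of flanks, and its last 5 letters are the first 5 of CGCTAG. The word CACCTA was in 8.87% against 4.36%, and its first 5 letters are the last 5 of the reverse complement of AGGTGGCG.

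The su(Hw) core TTGCATA was in 48 intergenic windows, 6.98% (5.19 to 9.14%), against 3.997% of flanks, 5.71% of tiles and 5% of all conservative peaks. The replicates had 7.59%, 6.37% and 8.71%, against 4.22%, 3.61% and 3.56% in their flanks and 5.44%, 5.60% and 7.15% in intronic windows. The word was above flanks in every replicate, but its share in tiles was closer to that of the members than the flanks were. The 48 windows included the sites at cu and chinmo printed above. AGGTGGCG and TTGCATA shared 3 windows.

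The promoter word TATCGATA, the site of DREF, was in 8 intergenic windows, 1.16%, against 9.95% of promoter and 0.199% of intronic windows. Its share was 0.436% in flanks and 0.454% in tiles, both below the intergenic share. In the replicates TATCGATA was in 1.48%, 1.49% and 0.792% of intergenic windows, against 9.38%, 10.7% and 10.5% of promoter windows. GTCACACT, the core of motif 1, was in 7 intergenic windows, 1.02%, against 5.15% of promoter windows, 0.436% of flanks and 0.325% of tiles. Of the 8 members with TATCGATA 6 lay within 1000 bp of a TSS, as did 32.0% of all intergenic members. GAGAG, the word of GAGA factor, was in 26.9%, against 19.4% of flanks and 26.5% and 29.0% of promoter and intronic windows. The 13 other words searched were between 0.50 and 1.30 times as frequent in members as in flanks.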

How the data were processed

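Peak lists from 3 biological replicates of chromatin from whole Dbx-GFP embryos, sheared to fragments of 200 to 800 bp, were used. The authors ranked or thresholded the lists by IDR on dm6, per the text deposited beside them, and the conservative list derives from the alignments of all 3 replicates. Aligner and peak caller are not named in the sources used here. Each peak carries a signal score as deposited by the authors; its scaling is not stated there. The authors' deposited ranked lists also give the −log10 of the IDR, and every thresholded peak had an IDR of 0.01 or below. Read depth is unknown. The labels name anti-GFP in one field and Dbx in the antibody field, and the source name gave the age. The control experiment named in the labels was not analysed here, and 8 columns of values for single samples in the series' ranked list were not used, because they name no sample.

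Summits were placed on genes of Ensembl release 115 and on the RefSeq sequence of dm6. Shares were computed per list, with exact binomial intervals at 95% that cover counting error only. Classes were compared within each replicate list by a two-sided exact sign-flip permutation test over 3 replicates, with Benjamini-Hochberg adjustment over 7 comparisons. Windows reached 100 bp to either side of a summit, and flanks were centred 1000 bp away. The members, 19 words and 10 gene lists were chosen with earlier results of these data known. Regions named are the 20 members of highest signal, the 10 farthest, up to 10 stretches with most members (1 of which is not reported here), the 5 to either side of the 250 bp limit, up to 4 per gene list and up to 10 in noncoding genes, and up to 10 words of 6 bases. The small RNA sites, the words of 8 bases and the members with AGGTGGCG or TATCGATA were chosen after their values were seen. Python 3.11.15 was used with numpy 2.4.6, pandas 2.3.3, scipy 1.17.1 and matplotlib 3.10.9, and the scripts were tested on simulated data. Other limits, lists and windows were tried, and each replicate was left out in turn.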

Additional observations from a re-analysis of the deposited data

How the results depend on the processing

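Several shares depended on which list and limit defined the set. With start sites excluded out to 500 or 1000 bp the share within 2000 bp of a start was 35.2% and 22.2%, against 47.1%, since the nearest peaks were then left out, and 16.2% lay in a noncoding gene at 1000 bp. It was 38.2% where the whole peak had to lie outside genes and promoters. The longest thresholded list gave 26.1% in all 3 replicate lists and 33.8% in none. Among the 2000 and 500 peaks of highest signal there were 278 and 58 members, of which 75.2% and 96.6% were in all 3 lists and 0% in none, with a mean GC of 36.8% and 35.5%, against 38.7%. For the 2000, 51.8% lay within 2000 bp of a start. Against the ranked lists without a threshold 94.0% of members were in all 3 and 0% in none. Leaving out 1 replicate in turn gave 39.4 to 45.3% in all remaining lists and 25 to 33.0% in none, with fewer lists to match.

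Of the differences between classes 3 changed sign. Recurrence of intergenic minus intronic peaks ran from -2.70 to 0.220 points when each replicate was left out, positive without replicate 2. With the 1000 peaks of highest signal per list the signal percentile of intergenic minus intronic peaks was -1.04, and GC of intergenic minus promoter windows was 0.0834 points. The cause was not tested. Recurrence of intergenic minus promoter peaks ran from -9.005 to -2.44 points. GC minus flanks ran from -4.10 to -2.79 points over the lists without 1 replicate. The classes were compared within each replicate list, so those differences are already taken by replicate. No paired analysis was possible because there is 1 group of samples, and none can be paired with another group. Putting back peaks past the IDR threshold, excluding noncoding starts, leaving out members on the bases of a stronger peak and scanning words of 8 bases were chosen after seeing the data. Without read counts, the depth behind a missing peak is unknown.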

Other observations

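The conservative ranked list held 152 peaks past the IDR threshold that the conservative thresholded list lacked, and 16 of these were intergenic by the same rule, 7 of them on 3R. The strongest of the 16 lay 1127 bp from the start of tara with a signal of 704, and 5 lay near Rh5 on 2L with signals up to 320.6. They were not counted among the 688.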
